A study of Danio rerio with 32 samples.

Results

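The 5 genes described here encode enzymes of amino acid and pterin metabolism in the zebrafish liver: CBS (ENSDARG00000053500), a pair of genes that both carry the symbol AGXT (ENSDARG00000052099, below the first AGXT gene, and ENSDARG00000018478, below the second AGXT gene), ARG2 (ENSDARG00000039269) and QDPR (ENSDARG00000040190). They were taken by Ensembl identifier from a table of 32519 genes, of which 11384 had enough reads to be tested, and all 5 members were among the genes tested. The genes were chosen by their levels and fold changes in these same libraries, and no single comparison or threshold is recorded for the choice. Their differences between APAP and DMSO, between genotypes and between times are therefore given as descriptions, with a standard error and no p-value of their own. Where the fit over all genes called a member, or a call was lost or gained under another setting, this places the gene in that fit and is no test of it.

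RNA was sequenced from livers of zebrafish larvae, with 20 livers pooled in each library. The 8 groups had 4 libraries each: nrf2 knockout (KO) larvae given acetaminophen (APAP), KO larvae given dimethyl sulfoxide (DMSO, a solvent, here the control), wild-type (WT) larvae given APAP and WT larvae given DMSO, each collected at 24 h and at 12 h. APAP is a painkiller that injures the liver in overdose, and Nrf2 is a transcription factor of the oxidative stress response. The knockout allele, the age of the larvae and the dose are not given in the sources used here, nor is it stated whether the 4 libraries of a group came from separate clutches, so that p-values measure the spread between libraries only. All levels are in CPM, the reads of a gene per 1000000 reads of a library total scaled with edgeR's TMM factors. They carry no correction for gene length, so levels are compared for the same gene only.

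CBS joins homocysteine to serine and so opens the transsulfuration pathway, which leads by way of cysteine to glutathione, the molecule that traps the reactive product of APAP in liver. AGXT transfers an amino group from alanine to glyoxylate, which yields glycine and keeps glyoxylate from becoming oxalate. ARG2 is the mitochondrial arginase, which splits arginine into ornithine and urea, and ornithine is the starting point of polyamines and proline. QDPR recycles tetrahydrobiopterin, the pterin cofactor that phenylalanine, tyrosine and tryptophan hydroxylases use up.

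Library totals ran between 3971569 and 6298523 counted reads, and between 4129 and 14683 genes had at least 1 read. The 3 libraries with the fewest genes were KO APAP 12 h replicate 2 with 4129, WT DMSO 12 h replicate 2 with 8815 and KO DMSO 12 h replicate 3 with 9703. Messenger RNA of the zebrafish gene with the symbol NFE2L2 (ENSDARG00000042824), which encodes Nrf2, averaged between 30.6 and 54.2 CPM in the 8 groups and was not called different between KO and WT in any comparison, so transcript level did not check the genotype labels. All 15 hepatocyte markers were detected, and they took between 7.06% and 15.1% of the reads of a library. Markers of exocrine and endocrine pancreas took between 1.09% and 10.96% of the reads, so the libraries did not hold liver transcripts alone. How these reads came into the libraries was not tested. In such bulk samples, fewer cells of a type and less RNA per cell cannot be told apart.

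**Figure D1:**
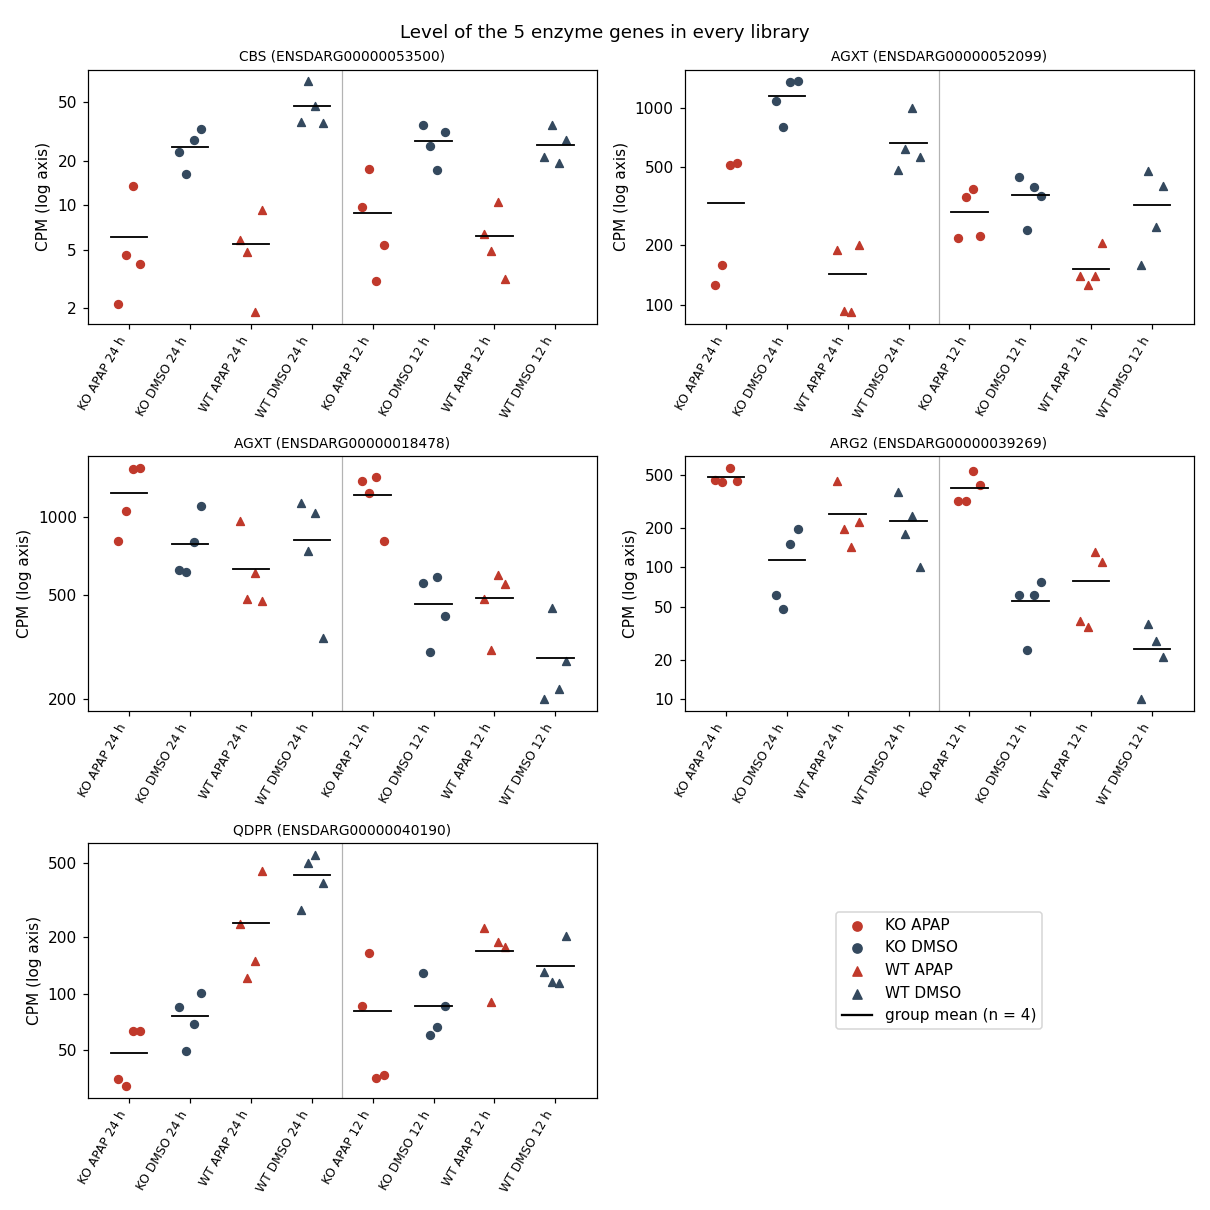
Level of each of the 5 genes in all 32 libraries, in CPM on a log axis. Each point is 1 library of 20 pooled livers, bars are arithmetic group means, circles are KO and triangles WT, and APAP stands left of DMSO within each genotype and time. CBS averages lower in APAP than in DMSO livers in all 4 pairs, ARG2 is highest in KO APAP livers and QDPR is highest in WT DMSO livers at 24 h.

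CBS stood lower in APAP than in DMSO livers in both genotypes and at both times. In KO livers at 24 h, CBS had 2.13, 4.595, 13.5 and 4.02 CPM with APAP, against 23.0, 16.4, 27.7 and 32.8 CPM with DMSO. For WT livers at 24 h, the values were 5.82, 4.80, 1.87 and 9.35 CPM of CBS with APAP, against 36.96, 69.8, 47.2 and 36.4 CPM with DMSO. The APAP and DMSO libraries did not overlap in either genotype at 24 h, and the highest APAP value was that of KO replicate 3. At 12 h, KO livers had 9.70, 17.6, 3.06 and 5.40 CPM with APAP, against 35.03, 25.3, 17.3 and 31.7 CPM with DMSO. WT livers at 12 h had 6.42, 4.86, 10.5 and 3.17 CPM with APAP, against 21.2, 34.98, 19.4 and 27.8 CPM with DMSO. The groups were apart in WT livers at 12 h, and in KO livers at 12 h they met at APAP replicate 2, 1 of the 3 libraries with few genes.

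The log2 difference of CBS between APAP and DMSO was -2.04 ± 0.54 in KO livers and -3.13 ± 0.56 in WT livers at 24 h, and -1.62 ± 0.53 in KO livers and -2.05 ± 0.54 in WT livers at 12 h (± standard error from the fit of all 32 libraries). The edgeR quasi-likelihood fit called CBS lower, at an adjusted p under 0.05 over all genes tested, in all of these except KO livers at 12 h. Without KO APAP 12 h replicate 2 the KO difference at 12 h was -2.18 and was called. The call in WT livers at 12 h was lost when any 1 of 5 libraries (APAP replicates 1, 2 and 4, DMSO replicates 2 and 4) was left out, with the difference between -2.41 and -1.87 over all omissions. The call in KO livers at 24 h was lost without APAP replicate 1, 2 or 4 or DMSO replicate 4, with the difference between -2.78 and -1.74. In the order of the 8 group means, the 4 DMSO groups came first, and WT DMSO at 24 h, at 47.6 ± 15.6 CPM (SD, n = 4), did not overlap the next group, whereas every later pair of neighbours overlapped.

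The other CBS gene of the table, cbsb (ENSDARG00000010946), is described here as a gene copy and was picked out after its values were seen. At 12 h, cbsb averaged 85.2 ± 57.7 CPM in KO APAP livers and 17.7 ± 2.38 CPM in KO DMSO livers (SD, n = 4 each), a log2 difference of 2.26 ± 0.48 that was called higher. Its log2 difference in WT livers at 12 h was 0.19 ± 0.46 and was not called. At 24 h cbsb was called in neither genotype, with -0.51 in KO and -1.06 in WT livers. Under DMSO, cbsb was called higher at 24 h than at 12 h in both genotypes, by 2.91 ± 0.49 in KO and 2.83 ± 0.49 in WT livers. At 24 h it averaged 133 ± 76.9 CPM in KO DMSO and 141 ± 63.1 CPM in WT DMSO livers, above the KO APAP mean at 12 h. How far reads were shared between gene copies of such families was not tested, since no sequences were used here.

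The first AGXT gene was lower with APAP at 24 h in both genotypes. In KO livers at 24 h, it had 125, 159.9, 512 and 526 CPM with APAP, against 1088, 805, 1359.6 and 1373 CPM with DMSO. WT livers at 24 h had 189, 92.3, 91.2 and 201 CPM with APAP, against 483, 623, 1006 and 562 CPM with DMSO. Neither genotype had overlapping groups at 24 h, and within the KO APAP group replicates 1 and 2 lay well under replicates 3 and 4. The log2 difference was -1.81 ± 0.39 in KO livers and -2.22 ± 0.39 in WT livers at 24 h, and both were called lower. At 12 h, KO livers had 218, 354, 389 and 225 CPM with APAP, against 444, 239, 398 and 358 CPM with DMSO. WT livers at 12 h had 139.6, 125, 139 and 205 CPM with APAP, against 159, 477, 249 and 401 CPM with DMSO. Both pairs of groups overlapped at 12 h and neither difference was called, with -0.28 ± 0.38 in KO and -1.08 ± 0.38 in WT livers. In the order of group means KO DMSO and WT DMSO at 24 h came first and the WT APAP groups last. Only WT DMSO at 24 h and the next group, KO DMSO at 12 h, and KO APAP at 12 h and the next group, WT APAP at 12 h, were neighbours without overlap.

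The second AGXT gene did not follow the first. In KO livers at 12 h, it had 1376, 1233, 1426 and 809 CPM with APAP, against 556, 302, 585 and 415 CPM with DMSO, and all 4 APAP libraries lay above all 4 DMSO libraries. WT livers at 12 h had 482, 308, 600.2 and 555 CPM with APAP, against 199, 447, 218 and 279 CPM with DMSO, with overlap. The log2 difference at 12 h was 1.38 ± 0.33 in KO livers, called higher, and 0.77 ± 0.33 in WT livers, not called. At 24 h, KO livers had 809.7, 1054, 1534 and 1542 CPM with APAP, against 627, 614, 802 and 1105 CPM with DMSO. WT livers at 24 h had 965, 482, 606 and 475 CPM with APAP, against 1134, 742, 1032 and 342 CPM with DMSO. The groups overlapped in both genotypes at 24 h and neither was called, with 0.65 ± 0.33 in KO and -0.36 ± 0.33 in WT livers. Its KO APAP groups came first in the order of means, at 1235 ± 364 CPM at 24 h and 1211 ± 280.4 CPM at 12 h (SD, n = 4 each), WT DMSO at 12 h came last, and all neighbours overlapped.

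The reads of the second AGXT gene divided by those of the first gave 1 ratio per library, which needs no scaling of the totals. It is a ratio of counts and not of transcripts, since gene lengths were not used, and so its change between groups is what can be read. At 24 h the ratio averaged 4.74 ± 2.06 in KO APAP livers and 0.683 ± 0.117 in KO DMSO livers (SD, n = 4 each). The WT ratio at 24 h averaged 4.84 ± 1.79 with APAP and 1.29 ± 0.744 with DMSO. At 12 h it averaged 4.27 ± 1.37 in KO APAP and 1.29 ± 0.131 in KO DMSO livers, and 3.23 ± 0.834 in WT APAP and 0.940 ± 0.232 in WT DMSO livers. The APAP libraries lay above the DMSO libraries in all 4 comparisons. Both genes were chosen with these values in view, so this separation is a description. How often other pairs of genes separate in this way was not counted. The gap was small in WT livers at 24 h, with a lowest APAP ratio of 2.366 and a highest DMSO ratio of 2.346.

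**Figure D2:**
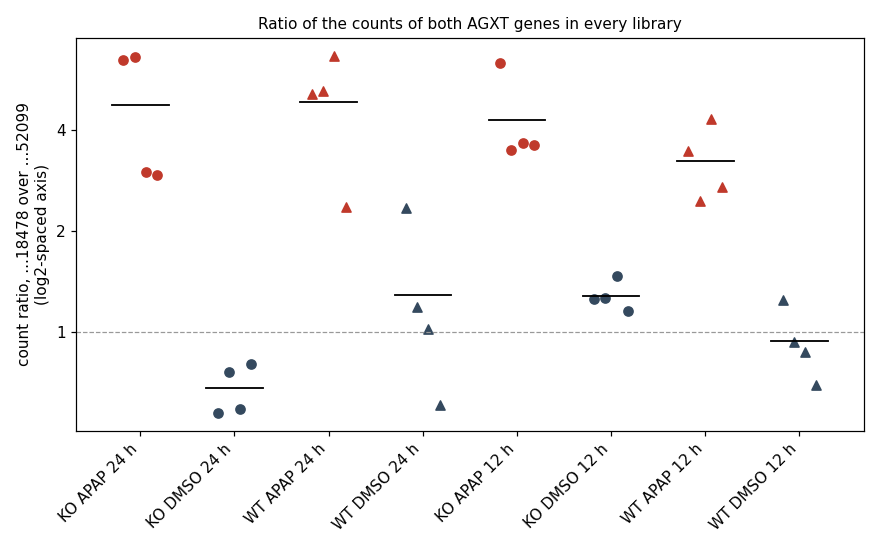
Ratio of the counts of the second AGXT gene to those of the first in every library, on a log axis with base 2. Points are libraries and bars are group means, with APAP left of DMSO. In KO livers at 24 h the ratio spans 2.93 to 6.59 with APAP and 0.576 to 0.805 with DMSO.

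AGXT2 (ENSDARG00000100709), a mitochondrial aminotransferase that also uses glyoxylate, was picked out after its values were seen. It was called higher in KO than in WT livers in all 4 comparisons of genotype. Under DMSO at 24 h, AGXT2 averaged 105 ± 8.30 CPM in KO livers and 11.5 ± 2.38 CPM in WT livers (SD, n = 4 each), a log2 difference of 3.19 ± 0.44. It was called in none of the 4 comparisons of APAP with DMSO.

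ARG2 was higher with APAP in KO livers at both times. In KO livers at 24 h, ARG2 had 458, 445, 564 and 449.8 CPM with APAP, against 62.0, 48.1, 150.1 and 196 CPM with DMSO. At 12 h, KO livers had 319, 319.6, 539 and 421 CPM with APAP, against 61.9, 23.6, 61.6 and 77.1 CPM with DMSO. The KO groups did not overlap at either time, and the log2 difference was 2.07 ± 0.47 at 24 h and 2.83 ± 0.48 at 12 h, both called higher. WT livers at 24 h had 449.7, 194, 142 and 221 CPM with APAP, against 374, 179, 243 and 101 CPM with DMSO. These WT groups overlapped, and their log2 difference of 0.17 ± 0.45 was not called and ran between -0.26 and 0.52 when single libraries were left out. WT livers at 12 h had 39.04, 35.1, 131 and 110.2 CPM with APAP, against 10.03, 37.4, 27.5 and 21.1 CPM with DMSO. The log2 difference there was 1.72 ± 0.46 and was called higher, although 1 APAP library lay under 1 DMSO library. That call was lost without APAP replicate 3 or 4 or DMSO replicate 1, 3 or 4, with the difference between 1.35 and 1.97. In the order of group means the KO APAP groups stood first at both times and the WT DMSO group at 12 h stood last, and all neighbours overlapped. ARG1 (ENSDARG00000057429), the other arginase, had 3 reads in all 32 libraries together and was not tested.

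QDPR was lower in KO than in WT livers at 24 h in both treatments. Under DMSO at 24 h, QDPR had 85.2, 49.5, 69.3 and 101 CPM in KO livers, against 281, 502, 552 and 391 CPM in WT livers. Under APAP at 24 h, it had 34.98, 32.2, 63.7 and 63.1 CPM in KO livers, against 236, 122, 149.5 and 450.4 CPM in WT livers. The KO libraries lay under every WT library in both treatments at 24 h, with a log2 difference of -2.50 ± 0.44 under DMSO and -2.30 ± 0.43 under APAP, both called lower. At 12 h under DMSO, QDPR had 129, 60.3, 66.8 and 86.6 CPM in KO livers, against 131, 115, 114 and 204 CPM in WT livers. At 12 h under APAP, it had 86.6, 165, 35.4 and 36.9 CPM in KO livers, against 224, 90.0, 189.7 and 178 CPM in WT livers. The genotypes overlapped at 12 h, with -0.72 ± 0.41 under DMSO and -1.07 ± 0.42 under APAP, neither of them called. Without KO APAP 12 h replicate 2, which was the highest KO APAP library and the one with the fewest genes, the difference under APAP was -1.66 and was called. Between APAP and DMSO the log2 difference of QDPR was -0.65 in KO and -0.85 in WT livers at 24 h, and -0.09 in KO and 0.27 in WT livers at 12 h, and none was called. The 4 WT groups stood above the 4 KO groups in the order of means, and all neighbours overlapped. A further QDPR copy (ENSDARG00000037378) had 263 reads in all 32 libraries together, and the other copies had at most 15.

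**Figure D3:**
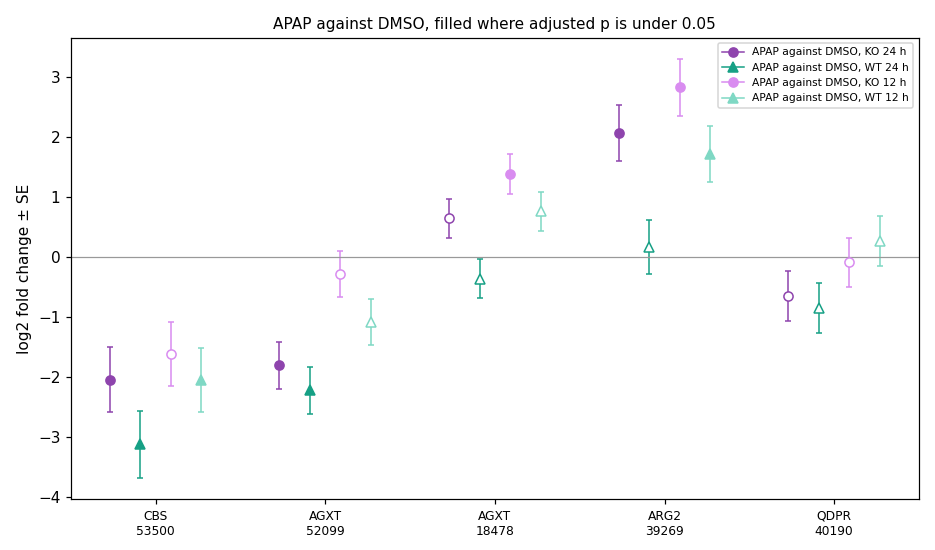
Log2 difference of APAP minus DMSO for the 5 genes, named with the last digits of their identifiers, in the 4 comparisons, with bars of 1 standard error to each side. Filled points were called at an adjusted p under 0.05. CBS and the first AGXT gene lie below 0 in all 4 comparisons, and ARG2 reaches 2.83 in KO livers at 12 h and 2.07 at 24 h.

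Counted over the 5 members, APAP against DMSO gave 3 called genes in KO livers at 24 h, 1 higher and 2 lower, where 5.05% of all genes tested were called. The WT count at 24 h was 2, both lower, where 3.2% of all genes were called. The KO count at 12 h was 2, both higher, where 5.22% were called, and the WT count at 12 h was 1 higher and 1 lower, where 1.8% were called. Groups without overlap between APAP and DMSO numbered 3 of 5 members in KO and 2 of 5 in WT livers at 24 h, where 17.5% and 13.1% of all genes had none. At 12 h they numbered 2 of 5 in KO and 1 of 5 in WT livers, where 11.7% and 8.67% of all genes had none. These shares are set beside the counts as background only, since the same contrasts were in view when the genes were chosen. The median log2 difference of all genes in KO livers at 12 h was -0.30, and -0.51 when totals were scaled by relative log expression. Between KO and WT livers under APAP at 12 h that median was -0.30, and -0.45 with the same rescaling. The members' differences in both comparisons are given as fitted, without correction for that shift.

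**Figure D4:**
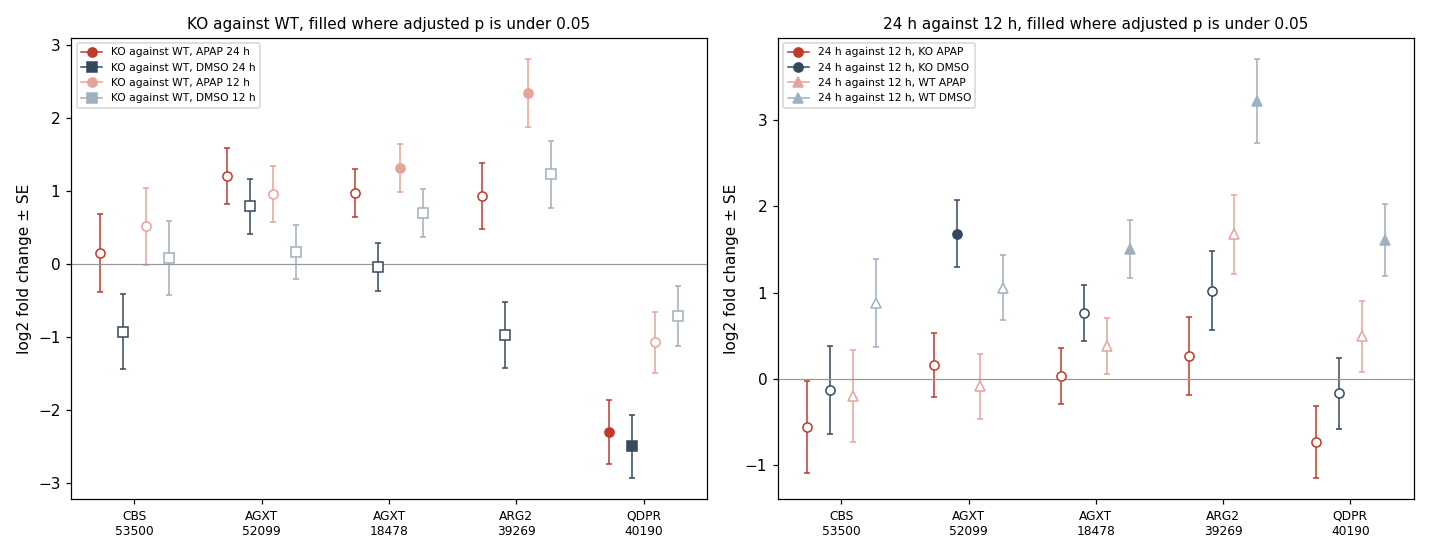
Log2 differences of the 5 genes between KO and WT livers and between 24 h and 12 h, with bars of 1 standard error to each side and filled points for genes called at an adjusted p under 0.05. QDPR lies at -2.50 and -2.30 in KO against WT at 24 h, and ARG2 lies at 3.23 in WT DMSO livers at 24 h against 12 h.

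Between genotypes, QDPR was the 1 member called in each treatment at 24 h, where 0.281% of all genes were called under DMSO and 1.19% under APAP. Under APAP at 12 h, 2 members were called higher in KO livers, where 2.23% of all genes were called. These were the second AGXT gene with a log2 difference of 1.32 ± 0.33 and ARG2 with 2.34 ± 0.47, and neither overlapped between genotypes. The call of the second AGXT gene was lost without KO APAP replicate 3 or WT APAP replicate 1 or 2, with the difference between 1.16 and 1.46. Under DMSO at 12 h, edgeR called 0 of 5 members, where 0.246% of all genes were called. There 2 members had an unadjusted p under 0.05, and DESeq2 called 0. The first AGXT gene was not called between genotypes under APAP at 24 h, with 1.21 ± 0.38, but was called without KO APAP replicate 1, and the difference then was 1.51. KO and WT libraries did not overlap for 2 of 5 members under DMSO and 1 of 5 under APAP at 24 h, where 10.4% and 10.8% of all genes did not, and for 0 of 5 under DMSO and 3 of 5 under APAP at 12 h, where 5.82% and 8.28% did not.

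The KO and WT responses to APAP were compared directly as a difference of differences. At 24 h the KO response of ARG2 exceeded the WT response by 1.91 ± 0.64 on the log2 scale, and that of the second AGXT gene by 1.01 ± 0.46. At 12 h the same quantity was 1.12 ± 0.64 for ARG2 and 0.62 ± 0.46 for the second AGXT gene. For CBS it was 1.08 ± 0.74 at 24 h and 0.43 ± 0.73 at 12 h, for the first AGXT gene 0.42 and 0.80, and for QDPR 0.20 and -0.36. EdgeR called 0 of 5 members at either time, where 0.105% of all genes were called at 24 h and 0.0703% at 12 h. At an unadjusted p under 0.05 there were 2 members at 24 h and 0 at 12 h, and DESeq2 called 0 at both. A larger response of ARG2 in KO than in WT livers was thus not called at either time, and for the chosen members these calls are a description and no test.

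The comparisons of 24 h with 12 h use the same libraries as the comparisons above, share their groups with them and are descriptions too. In WT DMSO livers 3 of 5 members were called higher at 24 h, where 2.05% of all genes were called. ARG2 averaged 224 ± 115 CPM at 24 h and 24.0 ± 11.5 CPM at 12 h (SD, n = 4 each), with every 24 h library above every 12 h library, a log2 difference of 3.23 ± 0.49. The second AGXT gene averaged 813 ± 355 CPM at 24 h and 286 ± 113 CPM at 12 h, with overlap, a log2 difference of 1.51 ± 0.33. That call was lost when the fit held only the compared groups, where the difference was 1.46. QDPR averaged 432 ± 121 CPM at 24 h and 141 ± 42.7 CPM at 12 h, without overlap, a log2 difference of 1.61 ± 0.42. The QDPR call was lost when WT DMSO 12 h replicate 1, 2 or 3 or WT DMSO 24 h replicate 2 or 3 was left out, with the difference between 1.45 and 1.84.

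In KO DMSO livers the first AGXT gene was the 1 member called higher at 24 h, with 1156 ± 268 CPM at 24 h, against 359.7 ± 87.8 CPM at 12 h (SD, n = 4 each), without overlap. The log2 difference was 1.68 ± 0.39, 2.52% of all genes were called there, and the call was lost without KO DMSO 12 h replicate 2, where the difference was 1.4998. ARG2 in KO DMSO livers had a log2 difference of 1.02 ± 0.45 and QDPR one of -0.17 ± 0.41, and neither was called. Whether the time changes of ARG2 and QDPR differed between WT and KO DMSO livers was not tested. With APAP, edgeR called 0 of 5 members between the times in either genotype, where 0.0527% of all genes were called in WT and 0.439% in KO livers. At an unadjusted p under 0.05 there was 1 member in WT livers, ARG2 with a log2 difference of 1.67 ± 0.46, and 0 in KO livers, and DESeq2 called 0 in both. The 24 h and 12 h libraries did not overlap for 4 of 5 members in WT DMSO and 2 of 5 in KO DMSO livers, where 10.3% and 14.6% of all genes did not, and for 1 of 5 in WT APAP and 0 of 5 in KO APAP livers, where 4.07% and 5.8% did not.

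Markers of hepatocytes and of other cells moved in some of the same comparisons. At 24 h, 4 of 15 hepatocyte markers were called lower with APAP in each genotype, and the summed hepatocyte share was 11.5% ± 1.24 in KO APAP and 13.9% ± 0.927 in KO DMSO livers, and 9.25% ± 1.69 in WT APAP and 11.5% ± 1.56 in WT DMSO livers (SD, n = 4 each). Red blood cell markers, 3 of 9 called lower in KO and 4 of 9 in WT livers, took 0.0287% to 0.0639% of reads in KO APAP and 0.106% to 0.240% in KO DMSO livers at 24 h, and 0.0346% to 0.0681% in WT APAP and 0.131% to 0.294% in WT DMSO livers. Pancreas markers at 24 h took 2.27% to 3.08% in KO APAP and 4.42% to 7.24% in KO DMSO livers, with 2 of 17 called lower, and 1.49% to 10.96% in WT APAP and 3.46% to 7.62% in WT DMSO livers, with 0 of 17 called. At 12 h, biliary markers took 0.1251% to 0.1592% in KO APAP and 0.0603% to 0.0837% in KO DMSO livers, with 3 of 7 called higher, and 0.137% to 0.244% in WT APAP and 0.0869% to 0.102% in WT DMSO livers, with 2 of 7. At 24 h, biliary markers took 0.0991% to 0.2015% in KO APAP and 0.0630% to 0.0901% in KO DMSO livers, with 2 of 7 called higher, and 0 of 7 were called in WT livers. Intestine markers in KO livers took 0.0267% to 0.0657% with APAP and 0.0701% to 0.173% with DMSO at 24 h, with 1 of 14 called lower, and 0.0400% to 0.0889% with APAP and 0.119% to 0.970% with DMSO at 12 h, with 2 of 14 called lower. Their part in the differences of the 5 enzymes was not tested. Of the 19 macrophage and neutrophil genes, 4 were at 0 in all libraries, and the list took at most 0.03% of the reads.

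In the comparisons of times, 7 of 15 hepatocyte markers and 6 of 17 pancreas markers were called higher at 24 h in KO DMSO livers, with median log2 differences of 1.29 and 1.62 beside the 1.68 of the first AGXT gene. The summed hepatocyte share there was 12.7% to 14.96% at 24 h and 7.18% to 14.2% at 12 h, and the pancreas share was 4.42% to 7.24% at 24 h and 1.34% to 5.07% at 12 h. Of the biliary markers in KO DMSO livers, 1 of 7 was called higher. In WT DMSO livers, 1 of 15 hepatocyte, 0 of 17 pancreas and 2 of 7 biliary markers were called higher at 24 h, with median log2 differences of 0.65, 1.39 and 1.09. The WT DMSO hepatocyte share was 9.32% to 12.98% at 24 h and 7.62% to 15.1% at 12 h, the pancreas share 3.46% to 7.62% at 24 h and 1.09% to 4.52% at 12 h, and the biliary share 0.129% to 0.157% at 24 h and 0.0869% to 0.102% at 12 h. Between KO and WT livers under APAP at 24 h, where QDPR was called, 1 of 15 hepatocyte and 1 of 9 macrophage and neutrophil markers were called higher and 1 of 14 intestine markers lower. Under DMSO at 24 h, where QDPR was also called between genotypes, no marker of any list was called. The median log2 difference there was -0.78 for biliary and -0.78 for red blood cell markers. The biliary share was 0.0630% to 0.0901% in KO and 0.129% to 0.157% in WT livers, without overlap. The part of these markers in the time and genotype differences of the 5 enzymes was not tested.

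The surrounding pathways were described with 6 lists that hold 170 other genes, of which 130 were tested. The lists were chosen with earlier results of these data known. Shares of all genes are therefore set beside them as background only and are no test of the pathways. Here and below, rose and fell mean higher and lower with APAP than with DMSO at the same time. At 24 h, 3 of the 130 tested genes rose and 16 fell in KO livers, and 2 rose and 11 fell in WT livers. These were 14.6% and 10% of the list, against 5.05% and 3.2% of all genes. At 12 h, 15 rose and 7 fell in KO livers and 8 rose and 2 fell in WT livers, 16.9% and 7.69% against 5.22% and 1.8%. With totals scaled by relative log expression, the KO split at 12 h was 11 higher and 8 lower. The median log2 difference of the 130 genes was -0.47 in KO and -0.32 in WT livers at 24 h, beside -0.00365 and 0.02 for all genes. From 12 h to 24 h, 12 of the 130 were called higher and 0 lower in KO DMSO livers, and 14 higher and 0 lower in WT DMSO livers. These were 9.23% and 10.8%, beside 2.52% and 2.05% of all genes, with medians of 0.53 and 0.55 beside -0.08 and -0.06. With APAP, 2 were called lower in KO and 0 were called in WT livers, beside 0.439% and 0.0527% of all genes. The 24 h comparison is thus against DMSO levels of the list that differed from those at 12 h. For APAP against DMSO, the WT count at 12 h was 6 without APAP replicate 1, and the WT count at 24 h was 8 without APAP replicate 3. The KO count at 12 h was 14 without DMSO replicate 1, 2 or 4. Fitted on the KO 12 h libraries alone, 5 of the 130 were called, 5 higher and 0 lower. On the KO 24 h libraries alone, 45 were called. Shares of all genes under these other settings are not given here, so these counts stand without a background.

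Of 25 methionine cycle and transsulfuration genes, 1 rose and 2 fell in KO and 1 rose and 1 fell in WT livers at 24 h, and 5 rose and 1 fell in KO and 2 rose in WT livers at 12 h. In that order these were 12%, 8%, 24% and 8% of the list, where 5.05%, 3.2%, 5.22% and 1.8% of all genes were called. TST, a mitochondrial sulfurtransferase, averaged 3.15 ± 2.00 CPM in KO APAP and 25.9 ± 7.06 CPM in KO DMSO livers at 24 h, and fell by 3.03 ± 0.61 on the log2 scale. TST also fell in WT livers at 24 h, by 3.20 ± 0.61, and in KO livers at 12 h, by 2.23 ± 0.58. SQOR, which oxidises sulfide in mitochondria, rose in WT livers, with a log2 difference of 2.16 ± 0.59 at 24 h and 3.30 ± 0.62 at 12 h. It was not called in KO livers, with 0.32 ± 0.57 at 24 h and 0.45 ± 0.57 at 12 h. At 12 h SQOR had 0 reads in KO APAP replicate 2, and 18.5, 19.9 and 13.1 CPM in replicates 1, 3 and 4. The KO DMSO libraries at 12 h had 6.61 to 12.6 CPM, so the KO difference at 12 h rests partly on replicate 2. In the direct test of KO minus WT responses, edgeR called 0 of the 130 genes at either time, with 7 at an unadjusted p under 0.05 at 24 h and 11 at 12 h, and DESeq2 called 0 and 1. GOT1, the cytosolic aspartate aminotransferase, rose in KO livers at 24 h and in both genotypes at 12 h, by between 1.33 and 1.78.

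Of 22 glycine, serine and glyoxylate genes, 5 fell in KO and 4 fell in WT livers with APAP at 24 h and none rose, while at 12 h 3 rose and 3 fell in KO livers and 1 fell in WT livers. In that order these were 22.7%, 18.2%, 27.3% and 4.55% of the list, where 5.05%, 3.2%, 5.22% and 1.8% of all genes were called. The other genes of the list were not called. GLYCTK, the glycerate kinase, fell in all 4 comparisons, by 2.99 ± 0.55 in KO and 2.25 ± 0.53 in WT livers at 24 h, and by 2.08 ± 0.53 in KO and 1.94 ± 0.53 in WT livers at 12 h. HAO1, the peroxisomal oxidase that makes glyoxylate, averaged 857 ± 150 CPM in KO APAP and 2074 ± 253 CPM in KO DMSO livers at 24 h. It was lower with APAP there by 1.27 ± 0.28. At 12 h, KO livers had 616 to 1123 CPM of HAO1 with APAP and 369 to 982 CPM with DMSO. The KO difference at 24 h thus lies beside a DMSO level above that at 12 h, and not beside a lower APAP level. HAO1 in WT livers at 24 h averaged 344 ± 82.9 CPM with APAP and 977 ± 144 CPM with DMSO, and fell by 1.504 ± 0.28. AMT, a component of the glycine cleavage system, fell in KO livers at both times and in WT livers at 24 h. At 12 h, KO APAP replicate 2 had 0 reads of AMT, and replicates 1, 3 and 4 had 5.98 to 11.8 CPM. The KO DMSO libraries at 12 h had 25.6 to 58.05 CPM. In WT livers at 12 h AMT was not called, with 2.70 to 13.95 CPM with APAP and 14.15 to 37.4 CPM with DMSO.

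Of 14 urea cycle, arginine, ornithine and proline genes, 3 rose with APAP in each genotype at 12 h and 1 rose in each at 24 h, none fell, and the others were not called. These were 21.4% of the list in each genotype at 12 h, beside 5.22% of all genes in KO and 1.8% in WT livers. At 24 h they were 7.14% in each, beside 5.05% of all genes in KO and 3.2% in WT livers. The median log2 difference of the 14 genes at 12 h was 0.81 in KO and -0.02 in WT livers, beside -0.30 and -0.07 for all genes. SAT1 (ENSDARG00000095908), which acetylates polyamines for export or breakdown, averaged 420 ± 71.5 CPM in KO APAP and 39.6 ± 14.7 CPM in KO DMSO livers at 12 h, and rose by 3.40 ± 0.34. WT livers at 12 h averaged 290 ± 46.6 CPM with APAP and 42.9 ± 6.34 CPM with DMSO, where the gene rose by 2.75 ± 0.33. A second gene with the symbol SAT1 (ENSDARG00000035652) rose by 1.94 in KO and 2.64 in WT livers at 12 h. ODC1, which turns ornithine into putrescine, rose by 1.93 ± 0.42 in KO and 2.02 ± 0.43 in WT livers at 12 h, and was not called at 24 h.

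Of 10 other pterin genes tested, 1 rose and 1 fell in KO livers and none was called in WT livers at 24 h. At 12 h, 1 fell in KO and 2 rose in WT livers. These were 20%, 0%, 10% and 20% of the list, where 5.05%, 3.2%, 5.22% and 1.8% of all genes were called. The median log2 difference of the 10 genes was -1.48 in KO and -0.60 in WT livers at 24 h, beside -0.00365 and 0.02 for all genes. It was -1.13 in KO and -0.35 in WT livers at 12 h, beside -0.30 and -0.07. GCH1 and SPR, which make tetrahydrobiopterin, were called higher in WT livers at 12 h, by 2.06 ± 0.46 and 3.40 ± 0.84. SPR (ENSDARG00000004406) was also called higher in KO livers at 24 h, where it averaged 18.5 ± 0.973 CPM with APAP and 2.58 ± 2.08 CPM with DMSO. AGMO, which uses tetrahydrobiopterin to cleave ether lipids, fell by 2.05 ± 0.38 in KO livers at 24 h. Of 17 genes for aromatic amino acids, 3 fell in each genotype at 24 h, and 4 rose and 1 fell in KO and 1 rose and 1 fell in WT livers at 12 h. These were 17.6% of the list in each genotype at 24 h, and 29.4% in KO and 11.8% in WT livers at 12 h. GSTZ1, an enzyme of tyrosine breakdown, fell by 2.77 ± 0.39 in KO livers at 24 h and fell by 2.29 ± 0.38 in WT livers. ACMSD, which acts in tryptophan breakdown, fell in all 4 comparisons, by between 1.26 and 1.83. The gene th2 averaged 2.02 ± 1.47 CPM in WT APAP livers at 12 h and had no read in the 4 WT DMSO libraries, so no fold is given. In KO livers at 12 h, th2 had 16.1, 61.2, 18.8 and 11.8 CPM with APAP, the highest of them in the library with the fewest genes, against 0.259, 0, 0 and 1.44 CPM with DMSO, and was called higher. At 24 h, th2 had 20.9, 18.2, 33.04 and 30 CPM in KO APAP livers, against 2.82, 6.39, 7.07 and 6.84 CPM in KO DMSO livers, without overlap, and its log2 difference of 2.14 ± 0.78 was not called. Of 42 other catabolic genes, 5 fell in KO and 3 in WT livers at 24 h and 1 fell in KO livers at 12 h, and none of the 42 rose in these comparisons. At 24 h these were 11.9% of the list in KO and 7.14% in WT livers, beside 5.05% and 3.2% of all genes. At 12 h the KO share was 2.38%, under the 5.22% of all genes, and 0 of 42 were called in WT livers. Among them, glud1a, ABAT and FTCD fell at 24 h in both genotypes, and glud1a, which encodes glutamate dehydrogenase, fell by 1.87 ± 0.43 in KO and 2.14 ± 0.43 in WT livers.

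**Figure D5:**
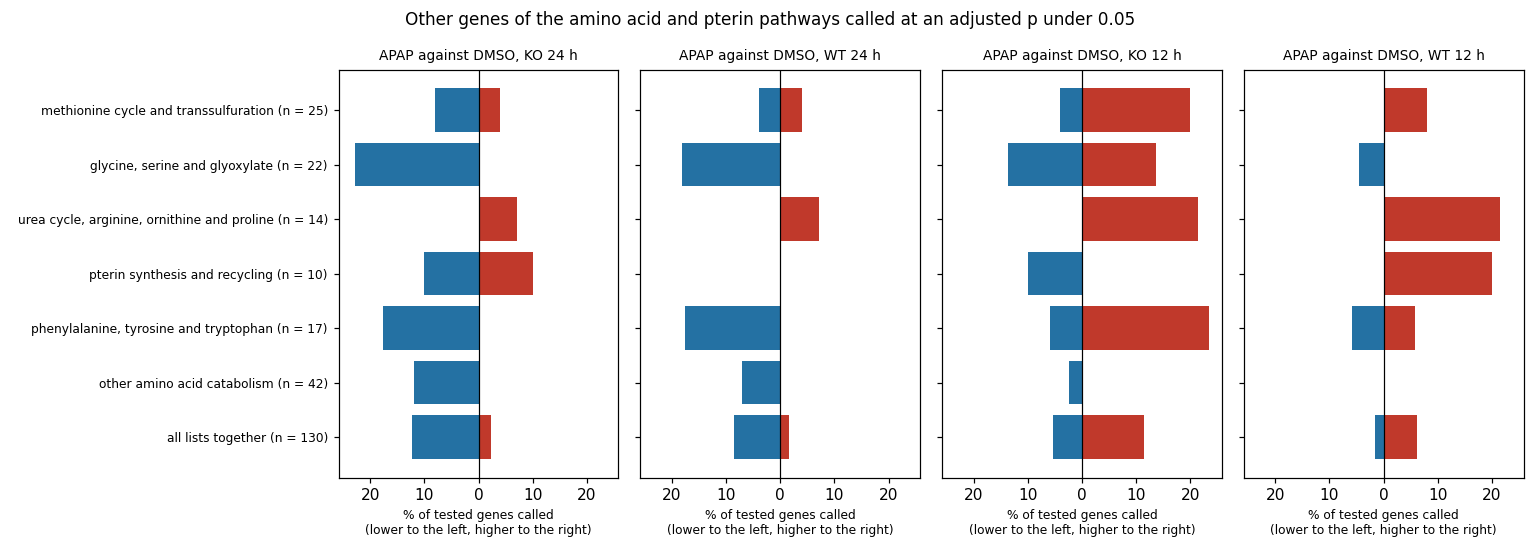
Percent of the other tested genes of each pathway list called at an adjusted p under 0.05 in APAP against DMSO, in 4 panels for KO and WT livers at 24 h and 12 h, with lower genes to the left of 0 and higher genes to the right. Over all lists, 16 genes were lower and 3 higher in KO livers at 24 h, and 7 lower and 15 higher at 12 h.

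Across the 32 libraries, log2 levels of the second AGXT gene and ARG2 had a Pearson correlation of 0.88, and those of CBS and the first AGXT gene 0.69. The AGXT pair had 0.29, CBS and ARG2 -0.36, and QDPR with the others between -0.20 and 0.43. These are descriptions over libraries that share their groups and treatments, and leaving out the 3 libraries with few genes moved none of them by more than a few hundredths. Likeness was compared over 4150 genes with a symbol and a mean of at least 3 on the log2 CPM scale. Genes whose symbols begin like clone names (such as si:, zgc:, AL, CR or CT) and hold a later digit were left out, ALDH genes among them. Within this set, the closest to CBS were ACMSD with 0.88, CYP7A1, which starts bile acid synthesis, with 0.87, and cbln13 with 0.83. The closest to the first AGXT gene were PHYHD1 with 0.89, TTC36 with 0.88 and ISOC2 with 0.88. The closest to the second AGXT gene were PNP with 0.89, ARG2 with 0.88 and EIF3F with 0.88, and PNP also came first for ARG2, with 0.92, followed by IGFBP1 and SLC38A3 with 0.88 each. QDPR had weaker likeness, led by c3b.2 with 0.77, MCMDC2 with 0.75 and XDH with 0.73.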

How the data were processed

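Livers of WT and nrf2 KO zebrafish larvae, given APAP or DMSO, were collected at 12 h or 24 h. They were sequenced as 32 libraries of 20 pooled livers. The deposited table holds raw read counts per Ensembl gene. Per the submitters' processing notes, bcl2fastq, Trim Galore, HISAT2 and HTSeq were used with genome build GRCz11. Versions, annotation release and strand setting are not given in the sources used here. HTSeq's own summary lines were left out of totals: no feature took 3.6% to 9.64%, ambiguous 2.06% to 3.17%, not aligned 11.8% to 21% and not unique 1.54% to 3.23% of a library's total.

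Genes were filtered with filterByExpr over the 8 groups, leaving 11384 of 32519. Counts were scaled by TMM and fitted in edgeR 4.0.16 (R 4.3.3) with 1 mean per group over all 32 libraries, which left 24 residual degrees of freedom, and the coefficient of biological variation was 0.743 overall. Each contrast was tested with the quasi-likelihood F-test, adjusted by Benjamini-Hochberg over all 11384 genes and called at an adjusted p under 0.05. Standard errors are the log2 fold change divided by the root of F. CPM use TMM-scaled totals. Correlations use log2 of CPM plus 2. Gene symbols came from supplied name tables. The symbols in the pathway lists were matched for 175 of 185 entries, to 175 genes with the members included. On simulated APAP against DMSO data in WT livers at 24 h with 10673 genes, the fit recovered 67% of changes of 2 and 96% of changes of 3 on the log2 scale, with 2.98% of calls false.

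The members and lists were chosen with earlier results of these data known. KO against WT under DMSO and 24 h against 12 h had been planned as tested and are given for the members as descriptions, as the APAP contrasts are, because the values were in view at the choice. Of each list, the up to 3 genes called in most APAP comparisons were named, with ties broken by the smallest p. A planned search of promoter motifs was not run. Replicate numbers were not used as pairs in the main fit, and whether they mark shared clutches is not stated. No 2 libraries of the same group were duplicates, and pairs across groups were not compared. Alternatives were RLE scaling, no filter, a replicate block, only the compared groups, DESeq2 1.42.0, leaving out 3 libraries with few genes, and leaving out each library in turn.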

Additional observations from a re-analysis of the deposited data

Results flagged for a closer look

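ARG2 in KO APAP livers at 24 h had 564.4 CPM in replicate 3, while the other 3 libraries lay between 444.6 and 458.4 CPM, with the gap to the nearest library at 0.885 of the group's range, above Dixon's 95% critical value. This was 1 of 40 gene and group combinations examined, and chance gives about 2.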

How the results depend on the processing

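Over the alternatives other than leaving out single libraries, 404 of the values kept their direction and their side of the threshold. The calls lost or gained were as follows, and the cause was not tested. CBS in WT livers at 12 h was -2.03 with the replicate block and was not called. ARG2 in WT livers at 12 h was 1.61 with RLE scaling, 1.55 with the replicate block and 1.75 with only the compared groups, and was not called. CBS in KO livers at 12 h was called at -1.81 with RLE scaling, at -2.35 without the 3 libraries with few genes and at -1.82 with DESeq2. The second AGXT gene was not called with only the compared groups, at 1.13 in KO livers at 12 h and at 1.46 for 24 h against 12 h in WT DMSO livers. QDPR between genotypes under APAP at 12 h was called at -1.66 without the 3 libraries and at -1.22 with DESeq2. With no filter, the first AGXT gene between genotypes under APAP at 24 h was called at 1.23, and ARG2 for 24 h against 12 h in WT APAP livers at 1.68. Values that changed sign were QDPR in KO livers at 12 h, 0.0061 with the replicate block, and, without the 3 libraries, CBS between genotypes under APAP at 12 h, -0.0149, and CBS in the difference of responses at 12 h, -0.49. The count of other pathway genes called became 18 in WT livers at 12 h, 30 in WT livers at 24 h and 34 in KO livers at 24 h without the 3 libraries. Calls over all genes rose in the same setting, to 414, 916 and 1215, from 205, 364 and 575 in the main fit. With only the compared groups it became 5 in KO livers at 12 h, 5 higher and 0 lower. In that setting it became 24 in WT and 45 in KO livers at 24 h, and no count over all genes is given for it. With DESeq2 it became 23 in WT livers at 24 h, where 663 of all genes were called, against 364 in the main fit.

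Leaving out 1 library at a time gave 585 values on the same side, 23 calls lost, 3 gained and 29 sign changes. For APAP against DMSO, CBS ran between -2.41 and -1.87 in WT livers at 12 h, between -2.18 and -1.38 in KO livers at 12 h and between -2.78 and -1.74 in KO livers at 24 h. ARG2 ran between 1.35 and 1.97 in WT livers at 12 h and between -0.26 and 0.52 at 24 h, and QDPR between -0.71 and 0.18 in KO livers at 12 h. Other pathway genes called numbered 6 to 10 in WT livers at 12 h, 14 to 24 in KO livers at 12 h and 8 to 17 in WT livers at 24 h. No counts over all genes are given beside these. For KO against WT, under DMSO, CBS ran between -0.052 and 0.26 and the first AGXT gene between -0.062 and 0.40 at 12 h, and the second AGXT gene between -0.29 and 0.16 at 24 h. Under APAP, CBS ran between -0.016 and 0.86, the second AGXT gene between 1.16 and 1.46 and QDPR between -1.66 and -0.84 at 12 h, and CBS between -0.57 and 0.55 and the first AGXT gene between 0.92 and 1.51 at 24 h. For 24 h against 12 h, QDPR ran between 1.45 and 1.84 in WT DMSO livers. In WT APAP livers CBS ran between -0.57 and 0.16 and the first AGXT gene between -0.29 and 0.092. In KO DMSO livers CBS ran between -0.30 and 0.0081, the first AGXT gene between 1.4998 and 1.81 and QDPR between -0.34 and 0.096. In KO APAP livers the first AGXT gene ran between -0.12 and 0.47 and the second between -0.089 and 0.22. The difference of CBS responses at 12 h ran between -0.13 and 0.74.

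Over the whole table, DESeq2 called 1285 and edgeR 594 genes with APAP in KO livers at 12 h, and in WT livers at 12 h DESeq2 called 415 and edgeR 205. Without the 3 libraries with few genes, all from 12 h groups, edgeR calls with APAP at 24 h became 1215 in KO and 916 in WT livers, from 575 and 364. Between KO and WT livers under DMSO at 24 h they became 171, from 32. The background shares given above thus depend on these 3 libraries, also in comparisons at 24 h. Same-numbered libraries of compared groups deviated together with correlations between -0.137 and 0.209, and in no comparison were all of them over 0.1. Such correlations cannot tell whether same-numbered libraries shared a clutch or a day. The replicate block gave 493 calls in KO livers at 12 h. On simulated data of this depth and spread, 67% of changes of 2 on the log2 scale were recovered, so smaller changes can be missed. The changes were placed only in genes above a minimum mean level, so recovery at lower levels was not measured.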
